A study of Homo sapiens with 12 samples.

Results

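The genes described here are 6 metallothioneins (MT2A, MT1X, MT1E, MT1F, MT1G and MT1M), the metal-sensing transcription factor MTF1, the zinc exporter SLC30A1 and the zinc importer SLC39A8. They were chosen by name, and each of the 9 symbols matched 1 of the 58735 rows of the count table. RNA was taken from THP1 cells, a human monocytic leukemia line, at the end of 2 h with 100 ng/ml of LPS, a bacterial product that activates monocytes. The 12 libraries fell into 4 groups of 3. For 24 h the THP1 cells were kept alone (mono-culture), beside control endothelial cells (control ECs), beside endothelial cells made senescent by 10 µM etoposide (senECs), or beside senECs that were afterwards given 100 µM epigallocatechin gallate (EGCG-treated senECs). The endothelial cells were primary umbilical vein cells (HUVECs), separated from the monocytes by a filter with 1 µm pores. Etoposide and EGCG are given in the labels for the endothelial cells only. Every library, the mono-cultures included, had LPS, so no level without LPS and no response to added zinc could be read from these data. The libraries are numbered 1, 2 and 3 in the first pair of groups and 1, 2 and 5 in the others.

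Metallothioneins are very small, cysteine-rich proteins that bind zinc and copper ions. When free zinc rises in a cell, MTF1 binds metal response elements, short DNA motifs upstream of the metallothionein genes and of SLC30A1, and raises their transcription. SLC30A1 (ZnT1) moves zinc out of the cell across the plasma membrane, whereas SLC39A8 (ZIP8) brings zinc into the cytosol and is known as a target of NF-κB in activated monocytes. Of these genes, the metallothioneins and SLC30A1, as targets of MTF1, are a standard readout of the zinc status of a cell.

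The coding sequences show how alike the counted metallothioneins are, which bears on how well reads can be told apart. Each held 183 bases before the stop codon, or 61 codons in 3 coding exons, and 20 of the 61 codons (32.8%) were for cysteine. In MTF1, SLC30A1 and SLC39A8 the share of cysteine codons was 2.79%, 3.55% and 2.39%. The sequences below were read from the principal coding transcripts of GENCODE release 29 (GRCh38), and capitals mark the bases that differ from MT2A.
MT2A: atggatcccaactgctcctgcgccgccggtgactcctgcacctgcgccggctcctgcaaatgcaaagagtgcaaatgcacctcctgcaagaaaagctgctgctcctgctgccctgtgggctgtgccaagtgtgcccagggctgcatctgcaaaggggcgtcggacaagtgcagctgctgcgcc
MT1X: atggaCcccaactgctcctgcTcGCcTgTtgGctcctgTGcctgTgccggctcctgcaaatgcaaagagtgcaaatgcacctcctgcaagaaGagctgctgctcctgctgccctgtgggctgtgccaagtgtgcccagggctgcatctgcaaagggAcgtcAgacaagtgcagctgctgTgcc
MT1E: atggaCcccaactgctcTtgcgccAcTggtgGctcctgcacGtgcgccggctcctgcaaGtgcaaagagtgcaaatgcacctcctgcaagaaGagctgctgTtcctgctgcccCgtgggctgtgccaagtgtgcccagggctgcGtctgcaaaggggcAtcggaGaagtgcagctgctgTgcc
MT1F: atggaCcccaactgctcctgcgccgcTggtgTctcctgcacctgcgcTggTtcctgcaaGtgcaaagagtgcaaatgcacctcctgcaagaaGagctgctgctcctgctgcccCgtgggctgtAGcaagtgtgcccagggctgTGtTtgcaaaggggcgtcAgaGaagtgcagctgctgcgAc
MT1G: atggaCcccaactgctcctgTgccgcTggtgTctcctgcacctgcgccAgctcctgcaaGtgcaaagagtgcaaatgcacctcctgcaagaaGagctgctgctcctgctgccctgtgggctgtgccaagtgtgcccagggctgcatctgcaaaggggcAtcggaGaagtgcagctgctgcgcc
MT1M: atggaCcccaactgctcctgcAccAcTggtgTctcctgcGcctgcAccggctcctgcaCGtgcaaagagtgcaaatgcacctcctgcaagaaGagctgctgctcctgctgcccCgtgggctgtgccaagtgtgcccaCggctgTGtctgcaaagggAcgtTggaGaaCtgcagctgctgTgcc
MT1G was the closest to MT2A, with 9 bases unlike, and MT1M the farthest, with 19. Over the 15 pairs the identity ran from 88.5% between MT1X and MT1F to 95.1% between MT2A and MT1G. A read as long as 100 bases could still be placed in most of them. In MT2A, MT1E, MT1F, MT1G and MT1M, 0 stretches of 100 bases in the longest transcript occurred in the transcript of another gene. In MT1X 125 of 1628 such stretches (7.68%) did. With stretches of 50 bases the shared part was 0.0656% for MT1F, 4.68% for MT2A, 7.05% for MT1M, 10.6% for MT1E, 14.3% for MT1G and 14.7% for MT1X. The paired-end reads of the study were longer than 100 bases, so the shares at 50 bases would apply only to shorter reads.

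All 6 metallothioneins lie in 1 cluster on chromosome 16 (GRCh38, GENCODE release 29). In order they are MT2A (ENSG00000125148; 56608199 to 56609497, plus strand), MT1E (56625475 to 56627112, plus), MT1M (56632233 to 56633986, plus), MT1F (56657694 to 56660698, plus), MT1G (56666731 to 56668065, minus) and MT1X (56682424 to 56684196, plus). MTF1 (37809567 to 37859620, minus) and SLC30A1 (211571568 to 211578742, minus) are on chromosome 1. SLC39A8 is on chromosome 4 (102251041 to 102431258, minus).

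The stretches before the transcription start are shown for MT2A, MT1X and SLC30A1, the targets of MTF1 for which a sequence was at hand. RefSeq (GRCh38.p14) gave 250 bases before the start for 5 of the 9 members. They were searched on both strands for the core of the metal response element, TGCACNC or TGCGCNC, and capitals mark the matches.
MT2A, chr16:56608334-56608583, plus strand: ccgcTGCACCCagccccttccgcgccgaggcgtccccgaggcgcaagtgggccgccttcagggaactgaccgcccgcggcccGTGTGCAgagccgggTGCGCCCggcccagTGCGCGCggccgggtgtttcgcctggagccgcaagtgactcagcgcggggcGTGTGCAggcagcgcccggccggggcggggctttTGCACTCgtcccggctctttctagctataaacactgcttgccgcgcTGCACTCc
MT1X, chr16:56682220-56682469, plus strand: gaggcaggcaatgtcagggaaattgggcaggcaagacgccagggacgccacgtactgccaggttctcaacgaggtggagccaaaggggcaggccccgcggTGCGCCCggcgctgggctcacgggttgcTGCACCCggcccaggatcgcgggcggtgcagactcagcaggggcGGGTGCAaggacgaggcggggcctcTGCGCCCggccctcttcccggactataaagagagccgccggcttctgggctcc
SLC30A1, chr1:211579162-211579411, minus strand: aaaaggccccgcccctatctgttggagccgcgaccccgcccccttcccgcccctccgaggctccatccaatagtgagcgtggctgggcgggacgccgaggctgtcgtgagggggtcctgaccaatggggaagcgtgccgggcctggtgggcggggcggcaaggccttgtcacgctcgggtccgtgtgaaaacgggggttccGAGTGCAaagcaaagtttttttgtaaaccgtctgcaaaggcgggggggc
MT2A held 7 matches (5 of TGCACNC and 2 of TGCGCNC), MT1X 4 and SLC30A1 1. MTF1 held 0, and of the 3 SLC39A8 starts 1 held a single match. Of all 35116 RefSeq promoters of this length, 24.8% held at least 1 match, 0.370% at least 4 and 0.0313% at least 7. The starts that RefSeq gives for MT2A, MT1X, MTF1 and SLC39A8 lie inside the genes as GENCODE release 29 draws them, and the SLC30A1 window lies wholly beyond the GENCODE start of SLC30A1 and does not adjoin it. A match is a description of the letters and not a site shown to be bound.

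**Figure D1:**
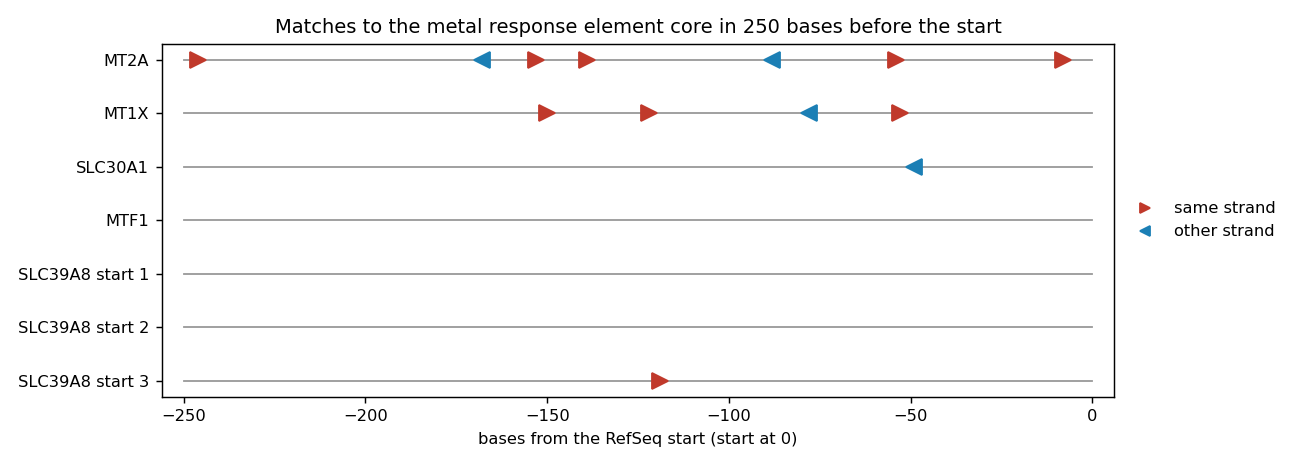
Position of each match to TGCACNC or TGCGCNC in the 250 bases before the RefSeq start, in bases from the start (x axis), for MT2A, MT1X, SLC30A1, MTF1 and the 3 starts of SLC39A8. Arrowheads give the strand of the match relative to the gene. The 7 matches of MT2A run from 246 to 8 bases before the start and the 4 of MT1X from 150 to 53. SLC30A1 has 1 at 49 bases before the start.

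By counts without regard to gene length, the metallothionein genes were only modestly expressed in these monocytes, while the sensor and the transporters were among the better expressed genes. Per kilobase of exon, MT1E was not set apart from the nearest of them. Levels are given in CPM, the counts divided by the TMM-scaled library size, and levels between genes are compared in CPM per kilobase of exon. The mean over 12 libraries was 19.8 ± 2.80 (SD, n = 12) CPM per kilobase for MTF1, 17.9 ± 2.14 for SLC30A1 and 17.6 ± 4.55 for SLC39A8. MT1E had the highest metallothionein level with 15.2 ± 3.24, ahead of MT2A with 8.49 ± 2.07. MT1G (4.08 ± 1.22) and MT1F (4.04 ± 0.789) came next, then MT1X with 1.57 ± 0.283 and MT1M with 0.0409. Down this order, MTF1, SLC30A1, SLC39A8 and MT1E were not set apart from their neighbours, since the upper gene of each pair was higher in 8, 7 and 7 of 12 libraries. MT1E lay above MT2A in 12 of 12 libraries and MT2A above MT1G in 12 of 12, although the ranges met across libraries. MT1G and MT1F could not be ordered, as MT1G was higher in 7 of 12. MT1X lay below MT1F, and MT1M below MT1X, with no overlap of the ranges.

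The order of the metallothioneins depended on the gene length used. Exons of all transcripts of a gene were joined for the values above. With the length of the principal coding transcript, a setting chosen after the data were seen, MT1E was at 22.7, MT2A at 14.0, MT1F at 11.1, MT1G at 7.53 and MT1X at 6.19 CPM per kilobase, and SLC39A8 at 36.4 came first of all members. MT1E was then above MTF1 at 19.9 and SLC30A1 at 17.9, as it also was with the length of the longest transcript. MT1E was the highest and MT1X the lowest of the 5 expressed metallothioneins under each of the 3 lengths tried. In plain CPM, with no regard to length, 94.96% of the 25873 genes tested had a lower mean than MTF1, 92.2% lower than SLC39A8 and 90.6% lower than SLC30A1. For MT1E, MT2A, MT1F, MT1G and MT1X the share was 68.3%, 64.7%, 61.5%, 54.3% and 53.6%.

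Other zinc transporters give these levels a scale. Of 23 further SLC30 and SLC39 genes, the highest in CPM were the importers SLC39A7 (ZIP7, which releases zinc from the endoplasmic reticulum) and SLC39A14 (ZIP14, the closest relative of ZIP8), and the exporters SLC30A5 and SLC30A7, which load the secretory pathway. SLC39A7 had 84.3 ± 7.11 CPM per kilobase and lay above SLC39A8 in 12 of 12 libraries. SLC39A14 had 26.1 ± 2.86 and was above SLC39A8 in 10 of 12. Among exporters, SLC30A1 was higher than SLC30A7 (9.72 ± 0.841) in 12 of 12 libraries but higher than SLC30A5 (16.6 ± 1.31) in only 8 of 12, with ranges that overlapped.

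**Figure D2:**
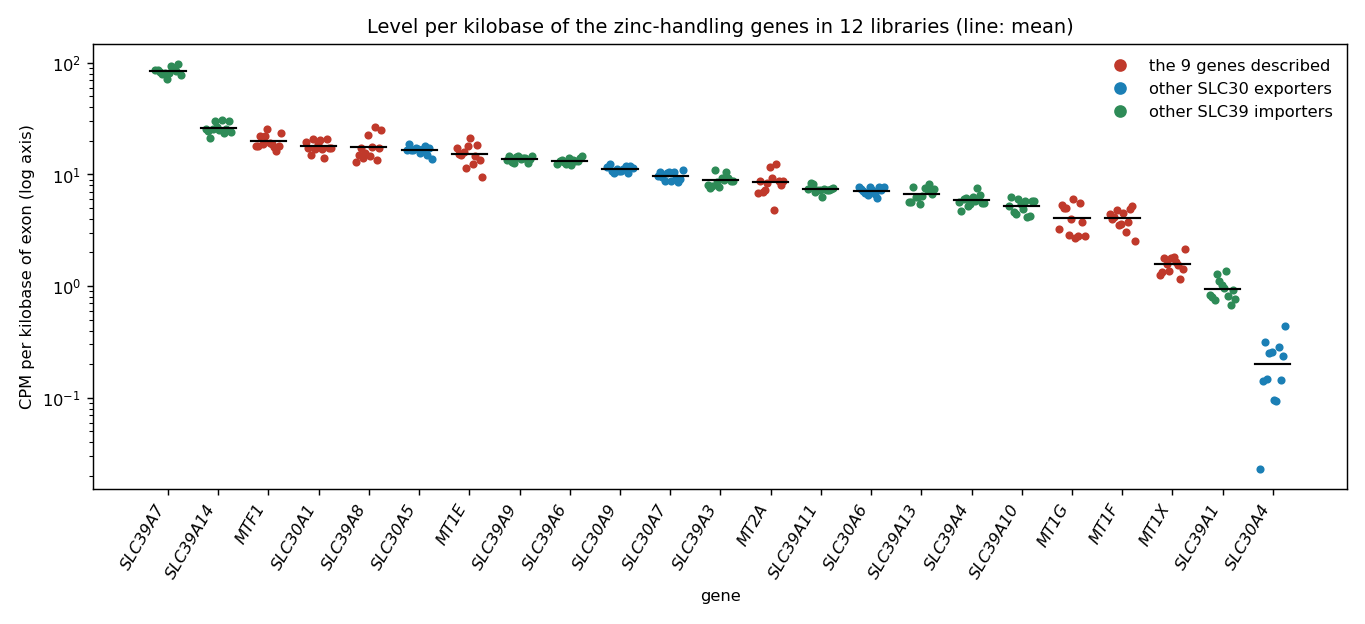
CPM per kilobase of exon (y axis, log scale) of the 23 zinc-handling genes with a mean of at least 1 CPM, ordered by their mean (black line); each point is 1 of 12 libraries. Red marks the genes described here, blue other SLC30 exporters and green other SLC39 importers. MTF1, SLC30A1 and SLC39A8 lie near 18 to 20, below SLC39A7 at 84.3, and the metallothioneins run from 15.2 for MT1E to 1.57 for MT1X.

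The question put by the design was whether endothelial neighbours, their senescence, or EGCG given to senescent neighbours changed gene expression in the monocytes. For the zinc-response genes no such change was detected when the 12 libraries were fitted by group. In all 6 comparisons between groups, 0 of the 8 members that could be tested passed an adjusted p of 0.05 in the edgeR quasi-likelihood test with Benjamini-Hochberg adjustment over 25873 genes, and DESeq2 also called 0. Over all genes tested, 0.143% were called for control ECs against mono-culture, 0.309% for senECs against mono-culture and 0.213% for EGCG-treated senECs against mono-culture. The share was 0.0% for each comparison among the 3 co-cultures, so there the members had the same count of calls as the whole table. DESeq2 called 0.464%, 1.34% and 0.889% of all genes against mono-culture, in the same order, and 0.0% among the co-cultures. At an unadjusted edgeR p under 0.05 there were also 0 members in any comparison. The share of all genes was 6.52%, 11.0% and 8.58% for control ECs, senECs and EGCG-treated senECs against mono-culture, 6.61% when senECs and 4.55% when EGCG-treated senECs were set against control ECs, and 2.22% between both senEC groups. The median log2 fold change of the 8 members was between -0.03 and 0.11 in the 6 comparisons, against medians of all genes between -0.02 and 0.01. MT1M had 8 counts in all and fell under the minimum of 10, which left it untested. No member separated any 2 groups by range either, whereas 12.8%, 16.7% and 14.1% of all genes did for the 3 comparisons with mono-culture, in that order, while 11.0% did when senECs and 9.49% when EGCG-treated senECs were set against control ECs, and 5.48% between both senEC groups. In bulk RNA a change in the share of cells that express a gene and a change in RNA per cell cannot be told apart.

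The intervals give the sizes of change compatible with each fold change taken alone. They come from the fit by group, without the library number, and are no joint bound over all members and comparisons. Across the 48 fold changes (8 members, 6 comparisons), no 95% interval reached above a 1.76-fold rise or beyond a 1.92-fold fall. The tightest were those of SLC30A1, which held at most a 1.32-fold rise or fall, and of MTF1, with at most 1.39-fold up and 1.45-fold down. Among metallothioneins the limits were 1.72-fold up and 1.53-fold down for MT2A, 1.46 and 1.62 for MT1E, 1.56 and 1.56 for MT1F, 1.69 and 1.56 for MT1X, and 1.71 and 1.92 for MT1G. In 7 of the 8 members the group means on the log2 scale spanned less than the SD between libraries of a group.

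**Figure D3:**
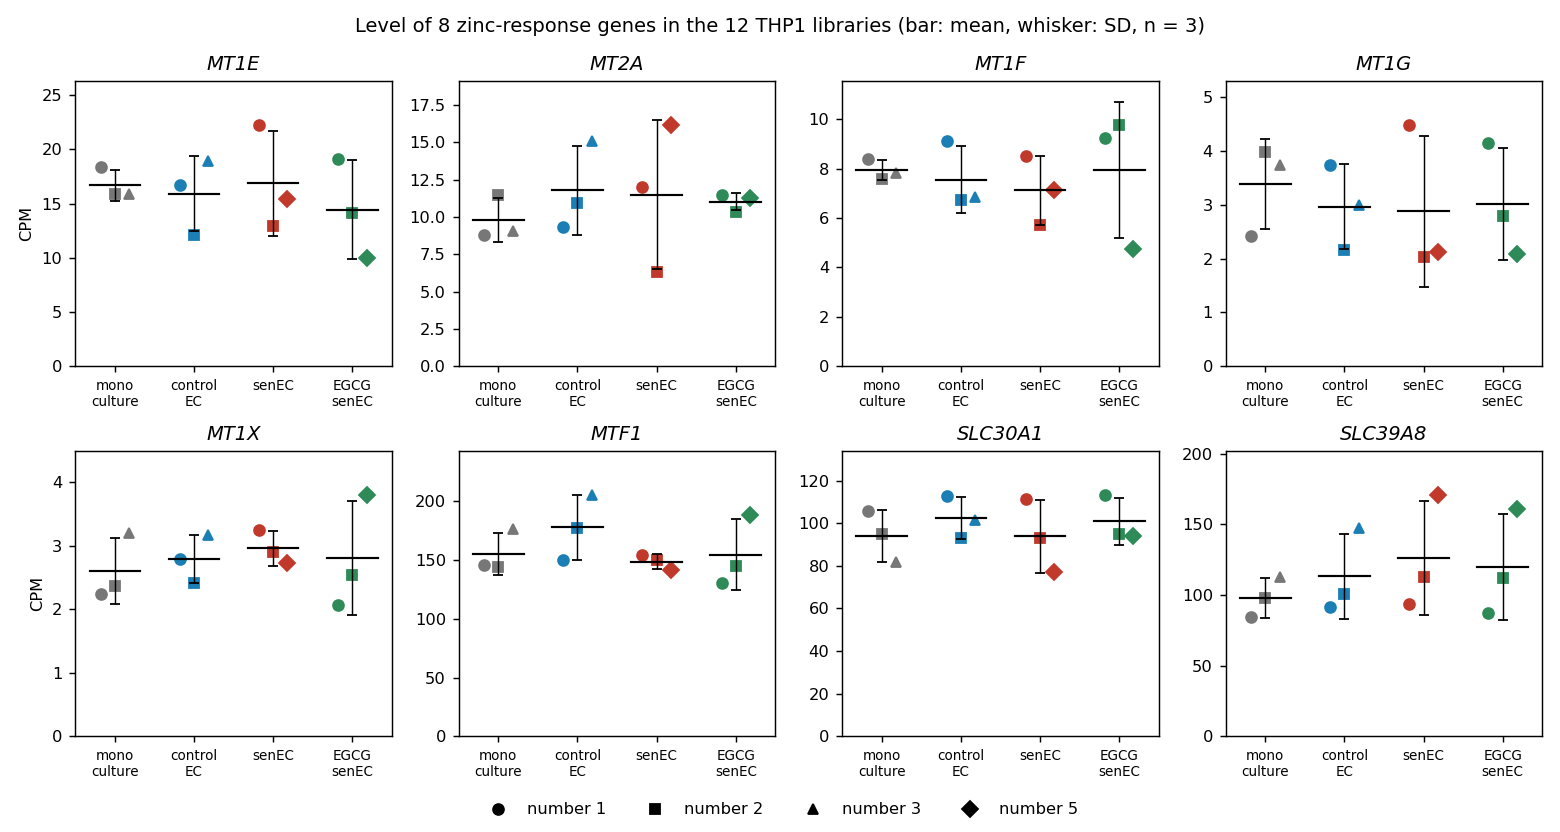
CPM (y axis, from 0) of 8 members in each library, by group; the symbol gives the library's number in the labels, the black bar the mean and the whisker the SD of 3 libraries. The groups overlap for every gene. In the SLC39A8 panel the circle (number 1) is lowest and the triangle or diamond (number 3 or 5) highest in all 4 groups, and in the SLC30A1 panel the circle is highest in all 4.

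MT2A, the most broadly expressed human metallothionein, had 8.83, 11.5 and 9.03 CPM in mono-culture (libraries 1, 2 and 3). With control ECs it had 9.36, 10.9 and 15.1 CPM, with senECs 12.0, 6.30 and 16.2 CPM (libraries 1, 2 and 5), and with EGCG-treated senECs 11.5, 10.4 and 11.3 CPM. Both the lowest and the highest of the 12 libraries were thus co-cultures with senECs, and the groups overlapped throughout. The log2 fold change for control ECs against mono-culture was 0.27 (SE 0.25, 95% interval -0.25 to 0.78; edgeR adjusted p = 0.949). For senECs against control ECs it was -0.03 (SE 0.25, interval -0.55 to 0.48), and for EGCG-treated senECs against senECs -0.06 (SE 0.25, interval -0.58 to 0.46).

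MT1E had the highest counts of the metallothioneins, with 187 to 432 reads per library. In mono-culture its level was 18.3, 15.9 and 15.9 CPM. With control ECs it was 16.7, 12.1 and 19.0 CPM, with senECs 22.3, 12.96 and 15.4 CPM, and with EGCG-treated senECs 19.1, 14.2 and 10.0 CPM. The mono-cultures lay close together and the co-cultures were spread around them on both sides. EGCG-treated senECs against senECs gave the lowest fold change of MT1E, -0.23 on the log2 scale (SE 0.22, interval -0.70 to 0.23; edgeR adjusted p = 1), and senECs against control ECs gave 0.09 (SE 0.22, interval -0.37 to 0.55).

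MT1F had 89 to 190 reads per library. Its level was 8.39, 7.59 and 7.82 CPM in mono-culture, 9.12, 6.72 and 6.84 CPM with control ECs, 8.52, 5.73 and 7.13 CPM with senECs, and 9.26, 9.78 and 4.77 CPM with EGCG-treated senECs. The last group held both the highest and the lowest library. The log2 fold change was -0.15 for senECs against mono-culture (SE 0.23, interval -0.64 to 0.34) and 0.15 for EGCG-treated senECs against senECs (SE 0.24, interval -0.34 to 0.64).

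MT1G and MT1X were counted at 35 to 87 and 34 to 71 reads per library, and their fold changes had the largest SEs of the 8 members tested. MT1G had 2.42, 3.98 and 3.75 CPM in mono-culture, 3.74, 2.15 and 3.00 CPM with control ECs, 4.49, 2.02 and 2.12 CPM with senECs, and 4.14, 2.80 and 2.09 CPM with EGCG-treated senECs. MT1X had 2.24, 2.37 and 3.19 CPM in mono-culture, 2.78, 2.42 and 3.17 CPM with control ECs, 3.25, 2.89 and 2.72 CPM with senECs, and 2.07, 2.54 and 3.80 CPM with EGCG-treated senECs. Neither gene stood apart in any group. The fold change with the smallest p of each was for senECs against mono-culture, -0.23 on the log2 scale for MT1G (SE 0.34, interval -0.94 to 0.48; edgeR adjusted p = 0.869) and 0.18 for MT1X (SE 0.27, interval -0.39 to 0.76; edgeR adjusted p = 0.869). MT1M was at 0 counts in 7 of 12 libraries and at 1, 2, 1, 3 and 1 counts in mono-cultures 1 and 3, control ECs 3, senECs 2 and EGCG-treated senECs 1. A count of 0 allowed up to 3 counts per library, or 0.132 to 0.191 CPM, which covers counting error only, and no fold change is given for MT1M.

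The metallothionein pool as a whole was of similar size in the 4 groups. The 6 genes together had 520 to 980 reads per library. Their levels summed to 40.4 ± 0.772 CPM (SD, n = 3) in the mono-cultures and to 41.1 ± 6.41 CPM beside control ECs. Beside senECs the sum was 41.4 ± 10.4 CPM, and it was 39.2 ± 7.08 CPM where these had been treated with EGCG. The means differed by less than the SD of any co-culture group, and the mono-cultures were closest to each other. MT1E made up 31.3 to 45.5% of the reads, MT2A 20.96 to 37.2%, MT1F 14.5 to 24.7%, MT1G 4.85 to 9.65% and MT1X 4.49 to 11.9%. In 10 of 12 libraries MT1E had more CPM than MT2A, and the 2 exceptions were the libraries numbered 5, with a ratio of MT2A to MT1E of 1.05 beside senECs and 1.13 beside EGCG-treated senECs. The 6 genes held 97.8% of the reads of all 21 metallothionein rows. Of the 15 others, the most abundant were MT1L with 4 to 23 reads and MT1A with 0 to 7 reads per library, and 7 were at 0 in every library.

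**Figure D4:**
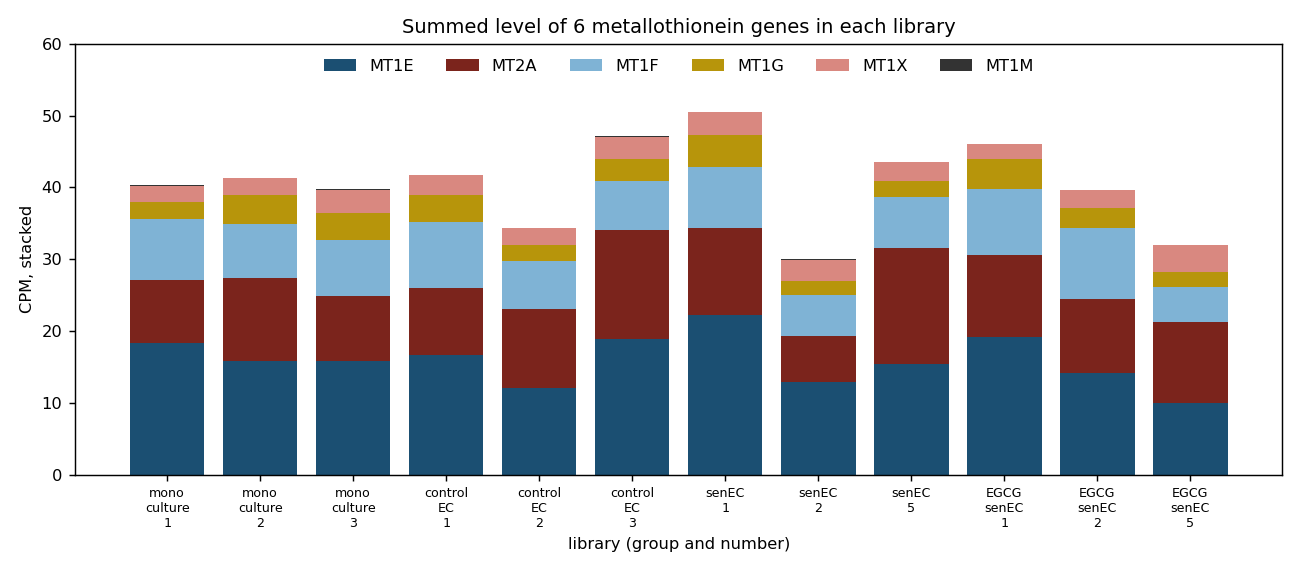
Summed CPM of the 6 metallothionein genes in each of 12 libraries (y axis), stacked by gene; the x axis gives group and number. The totals run from 30.1 to 50.6 CPM, and both extremes are co-cultures with senECs. MT1E and MT2A make up most of every bar, and MT1M is too low to see.

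MTF1, the sensor, had 146, 144 and 176 CPM in mono-culture and 150.3, 177 and 206 CPM with control ECs. With senECs it had 154, 150.2 and 141 CPM, and with EGCG-treated senECs 130.4, 145 and 188 CPM. The control EC libraries had the highest mean and the senEC libraries the lowest, but the lowest control EC library was below the highest senEC library. MTF1 was the 1 member whose group means spanned more (0.24 on the log2 scale) than the SD between libraries (0.19). For senECs against control ECs its log2 fold change was -0.26 (SE 0.13, interval -0.54 to 0.02; edgeR adjusted p = 0.728). The unadjusted p of this fold change was above 0.05 and the smallest of any member in any comparison. Control ECs against mono-culture gave 0.19 (SE 0.13, interval -0.09 to 0.47), and EGCG-treated senECs against senECs gave 0.06 (SE 0.13, interval -0.22 to 0.34).

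SLC30A1, the exporter that MTF1 induces, was the steadiest member, with a highest library 1.48 times the lowest. It had 106, 95.1 and 81.6 CPM in mono-culture, 113, 93.0 and 102 CPM with control ECs, 111, 93.2 and 76.9 CPM with senECs, and 113, 95.2 and 94.1 CPM with EGCG-treated senECs. The library numbered 1 was the highest of its group in 4 of 4 groups. Among all genes tested 5.29% had that pattern, and among those with a mean of at least 1 CPM 8.08%. The log2 fold change was -0.13 for senECs against control ECs (SE 0.13, interval -0.40 to 0.15) and 0.10 for EGCG-treated senECs against senECs (SE 0.13, interval -0.17 to 0.38).

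SLC39A8, the importer, had the highest fold change of the set, and its libraries held the same order by number in each group. It had 84.3, 97.7 and 113 CPM in mono-culture, 91.3, 101 and 147 CPM with control ECs, 93.9, 113 and 171 CPM with senECs, and 87.2, 112 and 161 CPM with EGCG-treated senECs. In 4 of 4 groups the library numbered 1 was the lowest and the one numbered 3 or 5 the highest, a pattern that 1.67% of all genes tested had, and 2.87% of those with a mean of at least 1 CPM. The labels do not say what a number stands for. Against mono-culture the log2 fold change was 0.20 with control ECs (SE 0.22, interval -0.25 to 0.66), 0.36 with senECs (SE 0.22, interval -0.10 to 0.82; edgeR adjusted p = 0.581) and 0.29 with EGCG-treated senECs (SE 0.22, interval -0.17 to 0.75). These 3 values share the same mono-cultures. Set beside the mono-culture of its number, with 5 beside 3, each library of all 3 co-culture groups was higher. Of genes with a mean of at least 1 CPM, 17.5% were higher in all 3 numbers with control ECs. The share was 25.7% with senECs and 22.6% with EGCG-treated senECs. With the replicate number as a block and numbers 3 and 5 joined, SLC39A8 was called with senECs against mono-culture (log2 fold change 0.32, edgeR adjusted p = 0.0179), in a fit that called 5.44% of all genes. With the replicate block as numbered it was not called (0.24, edgeR adjusted p = 0.254). In that fit senECs and mono-culture share only numbers 1 and 2, so senEC 5 and mono-culture 3 are not compared directly. SenECs against control ECs gave 0.16 (SE 0.22, interval -0.30 to 0.61), and EGCG-treated senECs against senECs gave -0.07 (SE 0.22, interval -0.52 to 0.39).

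**Figure D5:**
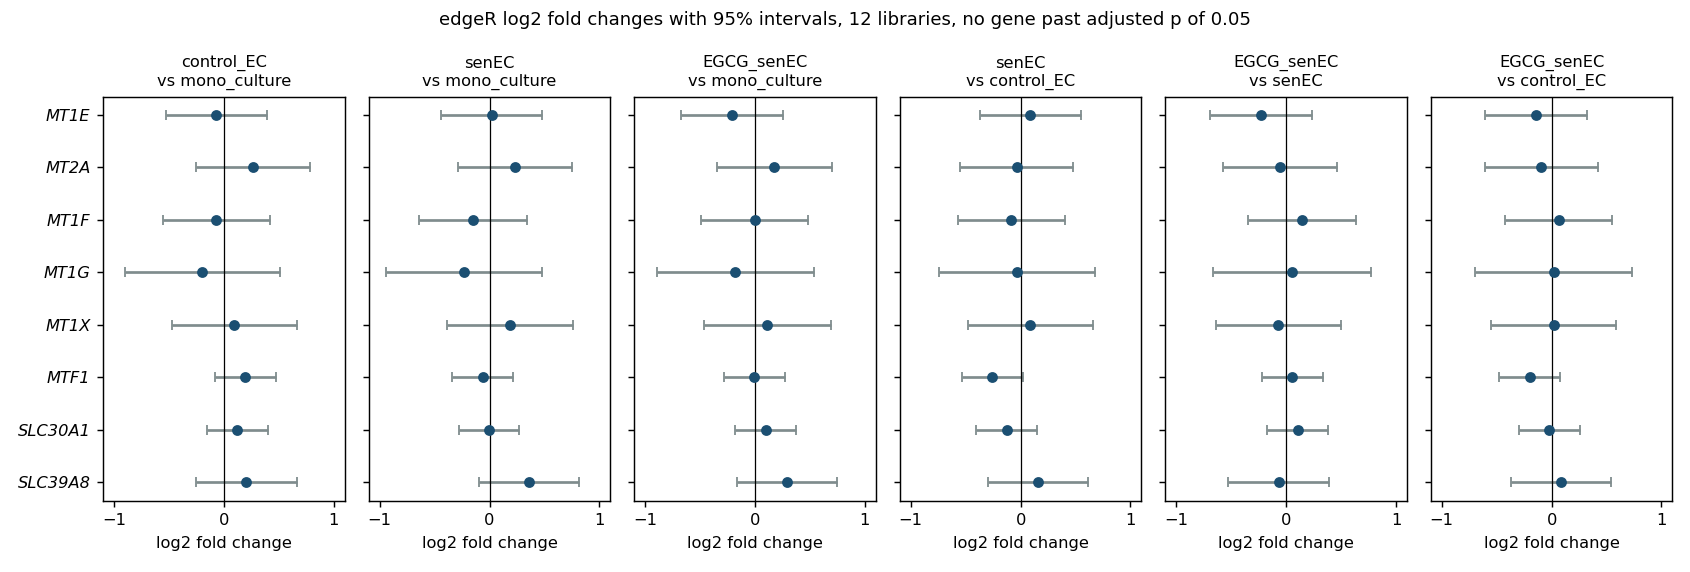
Log2 fold change (x axis, point) with its 95% interval (line) from edgeR for 8 members (y axis) in the 6 comparisons named above the panels. Every interval includes 0; the one for MTF1 in senECs against control ECs, from -0.54 to 0.02, comes closest to leaving it out.

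Genes whose levels followed those of a member most closely were looked for among 9350 genes with a mean of at least 10 CPM, by Pearson's r of log2(CPM + 2) over the 12 libraries, which share groups, numbers and depth. For SLC39A8 the closest were BTG3 (r = 0.99), CD163 (r = 0.98), NAMPT (r = 0.98), IL7R (r = 0.98) and GRAMD2B (r = 0.98). CD163 is the haptoglobin-hemoglobin scavenger receptor, and NAMPT makes the precursor of NAD. For SLC30A1 they were WDHD1 (r = 0.96), POLH (r = 0.95), PPM1D (r = 0.92), TUBGCP3 (r = 0.90) and KIF2A (r = 0.90), of which WDHD1 and POLH act in DNA replication. MTF1 was followed by USP49 (r = 0.93), FOXO3 (r = 0.93), CSF2RB (r = 0.93), IRAK3 (r = 0.92) and ZEB2 (r = 0.91). The metallothioneins had lower values of r, led by VPS50 (r = 0.90) for MT1E and GEMIN2 (r = 0.83) for MT2A. For MT1E they went on with TRAF3IP1, CCDC117, CTSG and SETDB2 (r = 0.84 to 0.86), and for MT2A with NAE1, TIPIN, STAU2 and DUSP2 (r = 0.81 to 0.83). All are the highest of 9350 values of r over only 12 libraries. How high r would reach among that many unrelated genes was not tested.

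Among the members themselves MT1E went with MT1G (r = 0.71), MT1F (r = 0.68) and less with MT2A (r = 0.24). SLC39A8 ran against SLC30A1 (r = -0.65). MTF1 had an r of 0.69 with MT1X, 0.19 with MT2A, -0.18 with SLC30A1, -0.24 with MT1G, -0.30 with MT1E and -0.58 with MT1F. These are descriptions over 12 libraries, in which the counts of MT1G and MT1X are low. The library numbered 1 was the lowest of its group for SLC39A8 and the highest for SLC30A1 in 4 of 4 groups. It was the highest for MT1E, MT1F and MT1G in 3 of 4. What these r values would be apart from the numbers was not tested.

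Among the other metal-handling genes 1 passed the test. Of the other SLC30 exporters 7 of 10 were tested and of the other SLC39 importers 12 of 13, and edgeR called 0 in any comparison, as did DESeq2. At an unadjusted p under 0.05 there were 0 exporters, and 1 importer each for control ECs and senECs against mono-culture and 2 between EGCG-treated senECs and control ECs. SLC39A7, SLC39A14, SLC30A5 and SLC30A7 had log2 fold changes between -0.18 and 0.20 in the 6 comparisons. The 2 other metallothioneins tested, MT1L and MT1A, were not called, with 1 unadjusted p under 0.05 (MT1A, senECs against mono-culture) at counts of 0 to 7. The copper list, 10 genes tested, held the gene that did, ATP7A, the copper-exporting ATPase mutated in Menkes disease. ATP7A had 9.82, 11.2 and 12.3 CPM in mono-culture and 8.11, 8.00 and 8.45 CPM with control ECs. It had 5.63, 4.97 and 6.89 CPM with senECs and 6.15, 6.54 and 5.62 CPM with EGCG-treated senECs. The mono-cultures were above every co-culture, and the control EC libraries above the other co-cultures. ATP7A fell by 0.93 on the log2 scale with senECs (SE 0.17; edgeR adjusted p = 0.0217) and by 0.87 with EGCG-treated senECs (SE 0.17; edgeR adjusted p = 0.0393), both against mono-culture. The call for senECs was lost without mono-culture 2, mono-culture 3 or senEC 2 (adjusted p = 0.120, 0.121 and 0.145), and that for EGCG-treated senECs when any single library other than senEC 1 or senEC 5 was left out (adjusted p from 0.0509 to 0.223). Control ECs against mono-culture gave -0.44 (adjusted p = 0.670) and senECs against control ECs -0.49 (adjusted p = 0.728). SLC31A1, the copper importer, and COX17, which carries copper to mitochondria, were the most abundant of the list, with 43.0 and 31.3 CPM on average, and were not called.

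Metallothioneins also respond to oxidants and glucocorticoids, so lists for these inputs and for LPS were read beside them. Of 12 genes of oxidative and metal stress, led by TXN and TXNRD1 with 226 and 189 CPM, edgeR called 0 in any comparison, with 1 or 2 unadjusted p under 0.05 in each. HMOX1 had the widest span of group means of that list, 1.08 on the log2 scale. It had 2.18 to 8.04 CPM in mono-culture, 3.55 to 9.95 with control ECs, 4.70 to 25.2 with senECs and 5.00 to 17.1 with EGCG-treated senECs, and these ranges overlapped. Of 10 glucocorticoid-response genes, 1 was called, HSD11B1, the enzyme that regenerates cortisol. HSD11B1 rose from 90.8, 96.3 and 69.4 CPM in mono-culture to 148, 164 and 149.8 CPM with control ECs, 148, 172 and 178 CPM with senECs and 139.8, 184 and 149.7 CPM with EGCG-treated senECs. All 9 co-cultures were above all 3 mono-cultures. Its log2 fold changes were 0.85, 0.96 and 0.89 (SE 0.13 each; edgeR adjusted p = 0.00516, 0.00163 and 0.00376), and the first lost its call without control EC 2 (adjusted p = 0.0605). FKBP5, a classical glucocorticoid target, was the most abundant of that list at 879 CPM and was not called. It had 689 to 819 CPM in mono-culture, and every co-culture was above that, at 846 to 1034 CPM. In the whole list, 2, 2 and 3 genes had an unadjusted edgeR p under 0.05 for control ECs, senECs and EGCG-treated senECs against mono-culture. Among the co-cultures 1 had it for senECs against control ECs and 0 in the others. Of 12 LPS-response genes, led by SOD2 and TNFAIP3 with 1491 and 1157 CPM, edgeR called 0, with 1 unadjusted p under 0.05 in all (NFKBIA, senECs against mono-culture). DESeq2 called 0 genes of the stress and LPS lists in any comparison.

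The cells had the markers of monocytes. Of 12 monocyte markers, 11 had a mean of at least 1 CPM in every group, led by ITGB2 and SPI1 with 1574 and 288 CPM, and CD68 was under 1 CPM. The summed level of the list was 2092 to 2952 CPM in mono-culture, 2108 to 2744 with control ECs, 2226 to 3624 with senECs and 2311 to 3048 with EGCG-treated senECs. CD14, the LPS co-receptor, was the 1 marker called, for senECs against mono-culture (log2 fold change 2.09, SE 0.42; edgeR adjusted p = 0.0363), from 5.91, 9.91 and 11.0 CPM to 16.6, 32.3 and 65.7 CPM. DESeq2 called SPI1 in that comparison as well. The edgeR call of CD14 was lost when mono-culture 1, 2 or 3, control EC 2, senEC 2 or 5, or EGCG-treated senEC 2 was left out (adjusted p from 0.0591 to 0.258), and without senEC 5 the log2 fold change was 1.44. Of 14 endothelial markers, 11 were tested and 0 were called by edgeR or DESeq2, with at most 3 unadjusted p under 0.05 in a comparison. Over all 12 libraries MMRN1 had 0 counts, CDH5 2, EMCN 5, ROBO4 15, KDR 26, CLDN5 30, TEK 36 and TIE1 63. ANGPT2 had 175 counts, ERG 185, VWF 236 and ESAM 425, and each of these 4 was counted in every library, the mono-cultures included. PECAM1 (163 CPM) and EGFL7 (21.9 CPM) were expressed in the mono-cultures too. The summed endothelial list was 158 to 184 CPM in mono-culture, 156 to 179 with control ECs, 196 to 237 with senECs and 188 to 243 with EGCG-treated senECs, and PECAM1 made up most of it.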

How the data were processed

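THP1 RNA was sequenced in 12 libraries of 4 groups. The deposited values are raw counts, made by the authors from paired-end reads aligned with HISAT2 to hg38 (GRCh38); the counting program and annotation are not given in the sources used here. All 57169 distinct symbols occur in GENCODE release 29, which supplied positions and lengths. 4 columns of the table matched no described sample and were not used. Totals ran from 15439836 to 22092600 counts per library (median 18153783). All 12 pairs of libraries of a group differed by more than sampling noise (chi-square per degree of freedom 9.23 to 33.7). The labels do not say that the libraries came from separate cultures, so p-values measure the spread between these libraries.

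Counts with a total of at least 10 were tested with edgeR 4.0.16 (R 4.3.3), TMM scaling, a quasi-likelihood fit of group over all 12 libraries and Benjamini-Hochberg adjustment at 0.05. The code was run beforehand on simulated counts with no effect of library number, which does not show its power at the spread of these libraries. SE was the size of the log2 fold change divided by the root of F. CPM per kilobase used the joined exons of each gene. DESeq2 1.42.0, other scalings and filters, 6 libraries alone, a replicate block and each library left out were alternatives.

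The members and lists were chosen with earlier results of these data known. Named were all members, and of the 9 other lists (108 genes) those called in any comparison or among the 2 most abundant. The 5 genes most like each member above 10 CPM were also named. HMOX1, NFKBIA, SPI1, CD68 and the endothelial markers besides PECAM1 and EGFL7 were named after their values were seen. Where a symbol had 2 rows the row with more counts was used.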

Additional observations from a re-analysis of the deposited data

How the results depend on the processing

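No member was called in any comparison by edgeR, by DESeq2, with DESeq2 size factors, with either other filter, in the 6 libraries alone or without any single library. The 1 call in any alternative was SLC39A8 for senECs against mono-culture (log2 fold change 0.32, adjusted p = 0.0179, where 1 member and 5.44% of all genes were called) in a fit with the replicate number as a block and numbers 3 and 5 joined. With the replicate block as numbered, 0 members were called in each comparison. In that fit the senEC groups, with or without EGCG, share only numbers 1 and 2 with mono-culture and control ECs. The number did not qualify as a pairing, which asked for a correlation of deviations over 0.1 in every same-numbered pair. That rule cannot show that the numbers are unrelated. Deviations from a mean of 3 libraries sum to 0, so number 2 lies near 0 where numbers 1 and 3 or 5 lie at opposite ends. The fit by group, and the intervals printed from it, leave the number out. Over 14397 genes the 6 pairs of number 1 had 0.457 to 0.577, the pair of number 3 0.416 and that of number 5 0.344, but only 2 of the 6 pairs of number 2 were over 0.1 (0.0319 to 0.336). The 4 pairs of a number 3 with a number 5 had 0.370 to 0.534, and 8 of 12 libraries correlated best with a library of their own number. The replicate block raised the share of all genes called to 1.81%, 2.74% and 1.64% for control ECs, senECs and EGCG-treated senECs against mono-culture and to 0.591%, 0.0502% and 0.131% for senECs against control ECs, EGCG-treated senECs against senECs and EGCG-treated senECs against control ECs. DESeq2 called 0.464%, 1.34% and 0.889% in the first 3 of these and 0.0% in the others.

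Of the 48 member fold changes, 34 changed sign without some library and 10 under another setting, never beyond 0.29 on the log2 scale. Those printed in the report ranged, without 1 library, for EGCG-treated senECs against senECs from -0.49 to 0.023 (MT1E), -0.03 to 0.42 (MT1F), -0.35 to 0.26 (MT2A), -0.11 to 0.17 (MTF1), -0.02 to 0.25 (SLC30A1) and -0.34 to 0.22 (SLC39A8). For senECs against control ECs they ranged from -0.16 to 0.25 (MT1E), -0.36 to 0.26 (MT2A) and -0.13 to 0.39 (SLC39A8), and for SLC39A8 with control ECs against mono-culture from -0.031 to 0.34. ATP7A in either comparison and CD14 were also not called in the 6 libraries alone (adjusted p = 0.0881, 0.0788 and 0.0793), nor was CD14 with at least 10 counts in every library (0.0779). With the longest transcript as length, MT2A had 12.2, MT1E 21.9, MT1F 4.86 and SLC39A8 28.4 CPM per kilobase. At 0 to 3 reads per library, depth left MT1M untested.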
